A study of Mus musculus with 2 samples.

Results

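RNA of 8 imprinted growth genes was counted in single cells of mouse gastruloids: Grb10, Cdkn1c, Phlda2, Slc22a18, Ascl2, H19, Igf2r and Kcnq1ot1. They are 8 of the 32285 gene rows in the deposited matrices, were picked by symbol, and fall into 4 imprinted loci. They were picked with the difference between the libraries already known, so every difference between the libraries given here is a description and carries no test. Gastruloids are aggregates of embryonic stem cells that begin to form a body axis in culture. Each aggregate started from about 300 cells of R1, an established mouse embryonic stem cell line, or of its mutant derivative, in serum-free N2B27. From day 2 the aggregates received 3 µM CHIR, an inhibitor of GSK3 that switches on Wnt signalling, for 12 h, and pooled aggregates were dissociated at day 2.5. One library carries the genotype label WT, and the other the label Double Mutant Sp5/8. Sp5 and Sp8 are zinc finger transcription factors that act downstream of Wnt. Both libraries had the same medium and the same CHIR treatment, and the labels do not say whether the mutant line is 1 clone. With 1 library per genotype, a difference between genotypes, between cultures and between library preparations cannot be told apart. The 95% intervals given in parentheses cover counting error only.

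RNA of both targeted genes was higher in the library labelled as their double mutant. The libraries are called wild-type-labelled and mutant-labelled throughout. Sp5 RNA stood at 109 UMIs per 1000000 UMIs (CPM) in the wild-type-labelled library and 479 CPM in the mutant-labelled one, and Sp8 RNA at 20.8 and 40.1 CPM. Counts per gene from 3′ ends do not tell an intact from an edited allele, so these values neither bear out nor contradict the labels. A UMI is a tag that marks 1 captured RNA molecule. Cells were barcodes with at least 2500 UMIs, at least 1000 genes and at most 10% mitochondrial UMIs, which left 8707 wild-type-labelled and 10587 mutant-labelled cells with medians of 10571 and 8637 UMIs. The libraries shared 27 cell barcodes, or 0.310% and 0.255% of their cells. A cell counted as positive for T, Eomes or Irx3 if it held at least 1 UMI of that gene. T marks the primitive streak and its mesoderm, Eomes the early streak and mesendoderm, and Irx3 early neural and neighbouring epiblast cells. T-positive cells numbered 2267 in the wild-type-labelled and 3100 in the mutant-labelled library, Eomes-positive cells 3780 and 6547, and Irx3-positive cells 1346 and 657. After every cell was thinned to 2500 UMIs, an Eomes UMI was found in 17% and 31.6% of cells and an Irx3 UMI in 4.67% and 2.14%, so the makeup of the libraries differed along with their labels.

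Imprinted genes are read mainly from the copy inherited from one parent, because a control region carries DNA methylation set in the egg or the sperm. Many genes read from the maternal copy hold growth back, many read from the paternal copy promote it, and this balance shapes the embryo and the placenta. In the Kcnq1 domain, the long noncoding RNA Kcnq1ot1 is made from the paternal copy and keeps Cdkn1c, Phlda2, Slc22a18 and Ascl2 silent on that copy. Kcnq1ot1 is therefore known as a paternally expressed RNA, and the name "maternally expressed" does not hold for it. The counts do not tell the parental copies apart, so parental origin was not examined in these cells.

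Grb10 showed the largest difference of the 8 genes. It encodes an adaptor that binds the insulin and IGF1 receptors and dampens their signalling, and it lies on the minus strand of chr11:11930508-12038683 (GRCm38, ENSMUSG00000020176). The gene had 6518 UMIs in the wild-type-labelled library, or 67.1 CPM (65.5 to 68.7). It had 991 UMIs in the mutant-labelled library, or 10.1 CPM (9.53 to 10.8). The level was thus 6.61-fold lower in the mutant-labelled library, a log2 ratio (mutant-labelled over wild-type-labelled, no pseudocount) of -2.72 (-2.82 to -2.63). This was the lowest of the ratios of all 7607 genes with a mean level of at least 10 CPM, whose 1st and 99th percentiles were -0.39 and 0.38. Of 6 listed neighbours of Grb10, 3 reached a mean of 1 CPM, and all 3 were lower by less than 1.5-fold. Fignl1, a DNA repair factor, had 37.5 and 30.9 CPM (log2 ratio -0.28). Cobl, an actin nucleator, had 2.82 and 2.28 CPM (-0.30), and Ddc, the enzyme that makes dopamine and serotonin, had 2.55 and 1.93 CPM (-0.41).

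The sequences before the Grb10 starts are shown because RefSeq gives this gene a pair of start sites of very different base composition. They stand beside Phlda2, which was also lower in the mutant-labelled library, and Kcnq1ot1, which was higher. Each is the 250 bases before the start on the gene's strand, from RefSeq on GRCm38.p6, in which 6 of the 8 genes had an entry. Capitals mark the GC box GGGCGG or its reverse complement CCGCCC, a motif that Sp-family factors are known to bind, with overlapping matches counted.
Grb10 outer start, chr11:12037421-12037670, minus strand: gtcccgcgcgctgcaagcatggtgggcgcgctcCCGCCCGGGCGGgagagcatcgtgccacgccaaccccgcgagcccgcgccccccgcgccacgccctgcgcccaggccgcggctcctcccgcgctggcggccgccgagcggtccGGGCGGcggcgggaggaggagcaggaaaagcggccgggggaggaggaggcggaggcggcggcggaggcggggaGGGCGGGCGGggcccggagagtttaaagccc
Grb10 inner start, chr11:12027972-12028221, minus strand: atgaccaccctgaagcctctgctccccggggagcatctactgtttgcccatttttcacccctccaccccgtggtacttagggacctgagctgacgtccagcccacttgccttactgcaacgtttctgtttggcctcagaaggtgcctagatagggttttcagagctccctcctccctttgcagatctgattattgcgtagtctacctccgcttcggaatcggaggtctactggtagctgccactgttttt
Phlda2, chr7:143502525-143502774, minus strand: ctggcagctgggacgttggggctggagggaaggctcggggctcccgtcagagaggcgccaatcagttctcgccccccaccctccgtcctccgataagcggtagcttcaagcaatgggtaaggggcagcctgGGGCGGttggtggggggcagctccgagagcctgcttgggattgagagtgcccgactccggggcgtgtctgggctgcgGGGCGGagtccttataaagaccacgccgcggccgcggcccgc
Kcnq1ot1, chr7:143296548-143296797, minus strand: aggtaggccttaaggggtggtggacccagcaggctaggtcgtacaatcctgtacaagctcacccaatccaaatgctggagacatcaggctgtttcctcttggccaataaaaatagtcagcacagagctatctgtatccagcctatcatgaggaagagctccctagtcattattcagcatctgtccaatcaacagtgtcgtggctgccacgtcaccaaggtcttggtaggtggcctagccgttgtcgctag

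The outer Grb10 sequence held 40 CG pairs and 5 matches to the GC box, and 1.31% of the 32851 RefSeq promoters held as many CG pairs. At the inner Grb10 start there were 8 CG pairs, a count that 43.0% of promoters reached, and 0 matches. The median promoter had 6 CG pairs, and 32.7% of promoters held the GC box. Phlda2 had 21 CG pairs and 2 matches, Igf2r 27 and 3, Ascl2 19 and 1, and Kcnq1ot1 5 and 0, while Slc22a18 had 0 of either. The hexamer TGCCGC or its reverse complement GCGGCA, the core bound by the imprint keeper ZFP57, occurs in 8.68% of promoters and in 0 of these 7 windows. Counts per gene do not separate the transcripts from the Grb10 start sites.

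In the Kcnq1 domain on chromosome 7, Cdkn1c, Phlda2, Slc22a18 and Ascl2 were lower and the noncoding RNA Kcnq1ot1 was higher in the mutant-labelled library. Cdkn1c encodes p57Kip2, an inhibitor of cyclin-dependent kinases that takes cells out of the cell cycle (minus strand of chr7:143458339-143461050, ENSMUSG00000037664). It had 2017 UMIs and 20.8 CPM (19.9 to 21.7) in the wild-type-labelled library, against 665 UMIs and 6.81 CPM (6.30 to 7.35) in the mutant-labelled one. The 3.05-fold difference, a log2 ratio of -1.61 (-1.74 to -1.48), was the 2nd lowest of the 7607 genes. Phlda2 encodes a small pleckstrin-homology protein that limits placental growth (minus strand of chr7:143501545-143503150, ENSMUSG00000010760). It had 1919 UMIs and 19.8 CPM (18.9 to 20.7) against 1116 UMIs and 11.4 CPM (10.8 to 12.1), a log2 ratio of -0.79 (-0.90 to -0.68) and the 7th lowest. Between these genes lies Slc22a18, an organic cation transporter family gene (plus strand of chr7:143473736-143499334, ENSMUSG00000000154). It was close to the detection limit, with 44 and 20 UMIs, or 0.453 and 0.205 CPM, and a log2 ratio of -1.14 (-1.99 to -0.35). Ascl2, a basic helix-loop-helix factor of the trophoblast and a known Wnt target, is on the other side of the domain (minus strand of chr7:142966829-142969264, ENSMUSG00000009248). It had 138 and 65 UMIs, or 1.42 and 0.666 CPM, and a log2 ratio of -1.09 (-1.54 to -0.66).

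Kcnq1ot1 was the 1 gene of the 8 whose interval over all cells lay wholly above 0. It runs along the minus strand of chr7:143203458-143296549 (ENSMUSG00000101609), antisense to Kcnq1. The wild-type-labelled library held 16213 UMIs, or 167 CPM (164 to 169), and the mutant-labelled library 20014 UMIs, or 205 CPM (202 to 208). Its log2 ratio was 0.30 (0.27 to 0.33), a 1.23-fold difference, at position 7474 of the 7607 genes counted from the lowest. The sense gene Kcnq1, a potassium channel, had 0 and 3 UMIs. The counting strand was not given in the sources used here, so reads of an antisense pair might be assigned to either gene.

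Most of the other Kcnq1 domain genes that reached a mean of 1 CPM were lower in the mutant-labelled library, by less than 1.5-fold. Of 12 listed neighbours, 7 reached a mean of 1 CPM, with a median log2 ratio of -0.13, where all genes at that level had -0.03. In all, 6 were lower and 1 was higher, and 0 of the 7 were past 1.5-fold. Cars, a transfer RNA synthetase gene beyond Phlda2, was the higher one, with 53.9 and 69.2 CPM (0.36, 0.31 to 0.41), a ratio above that of Kcnq1ot1. Cd81, which encodes a tetraspanin, had 246 and 219 CPM (-0.17), and Dhcr7, which encodes the last enzyme of cholesterol synthesis, had 37.1 and 33.1 CPM (-0.16). Lower still, and named here after their values were seen, were Osbpl5, with 156 and 108 UMIs (-0.54, -0.91 to -0.17), and Tnfrsf23, which did not reach 1 CPM, with 79 and 51 UMIs (-0.64, -1.18 to -0.11). Tssc4 (-0.04) and Nap1l4 (-0.05) were near the median of all genes.

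**Figure D1:**
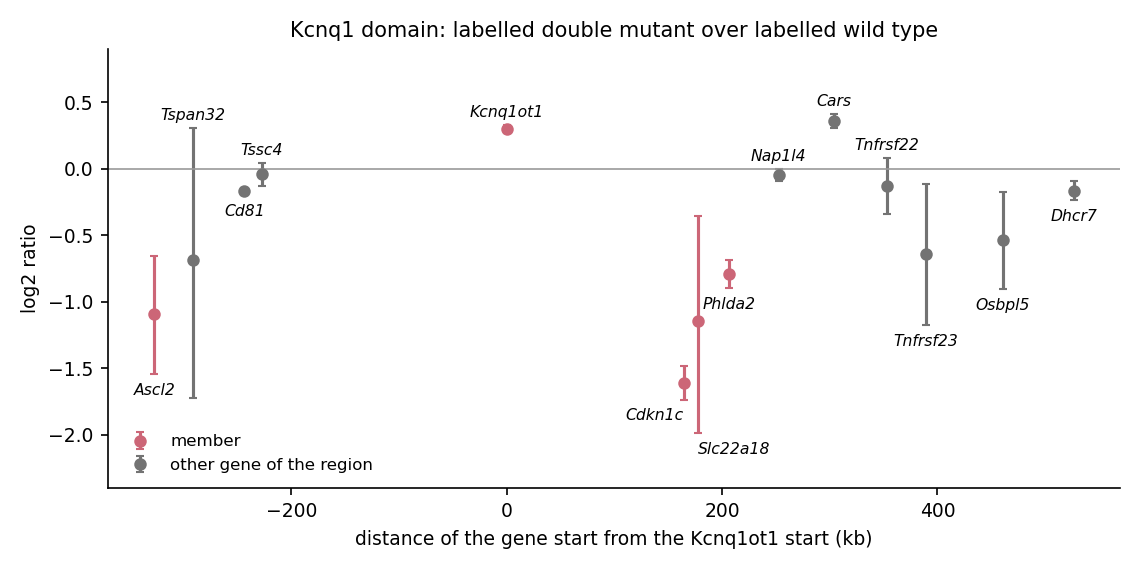
Log2 ratio (mutant-labelled over wild-type-labelled library, all kept cells) of genes in the Kcnq1 domain with at least 30 UMIs in all, against the distance of the gene start from the Kcnq1ot1 start in kb. Points are the ratios and bars the 95% counting intervals. Cdkn1c, Slc22a18, Phlda2 and Ascl2 lie between -1.61 and -0.79, Kcnq1ot1 lies at 0.30, and the other genes lie between -0.69 for Tspan32 and 0.36 for Cars.

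H19 and Igf2r make up the remaining loci. H19 is a noncoding RNA that is abundant in extraembryonic and fetal tissue (minus strand of chr7:142575529-142578143, ENSMUSG00000000031) and that overlaps Mir675. It had 59 and 80 UMIs, or 0.607 CPM (0.462 to 0.783) and 0.819 CPM (0.650 to 1.02), a log2 ratio of 0.43 whose interval (-0.07 to 0.94) included 0. Igf2, the growth factor gene next to it, had 107 and 78 UMIs (-0.46, -0.90 to -0.03). Igf2r encodes the receptor that removes IGF2 from the cell surface (minus strand of chr17:12682406-12769664, ENSMUSG00000023830). It had 3037 UMIs and 31.3 CPM (30.2 to 32.4) against 2328 UMIs and 23.8 CPM (22.9 to 24.8), a log2 ratio of -0.39 (-0.47 to -0.31). This was the 80th lowest of the 7607 genes, within 1.5-fold. Airn, the paternally expressed antisense RNA that silences Igf2r, had 20 and 38 UMIs (0.92, 0.10 to 1.78). Of 11 listed Igf2r neighbours, 5 reached 1 CPM, and their median log2 ratio was -0.03. The acetyltransferase gene Acat2 stood at 0.18, the superoxide dismutase gene Sod2 at -0.09 and the chaperonin gene Tcp1 at 0.08.

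**Figure D2:**
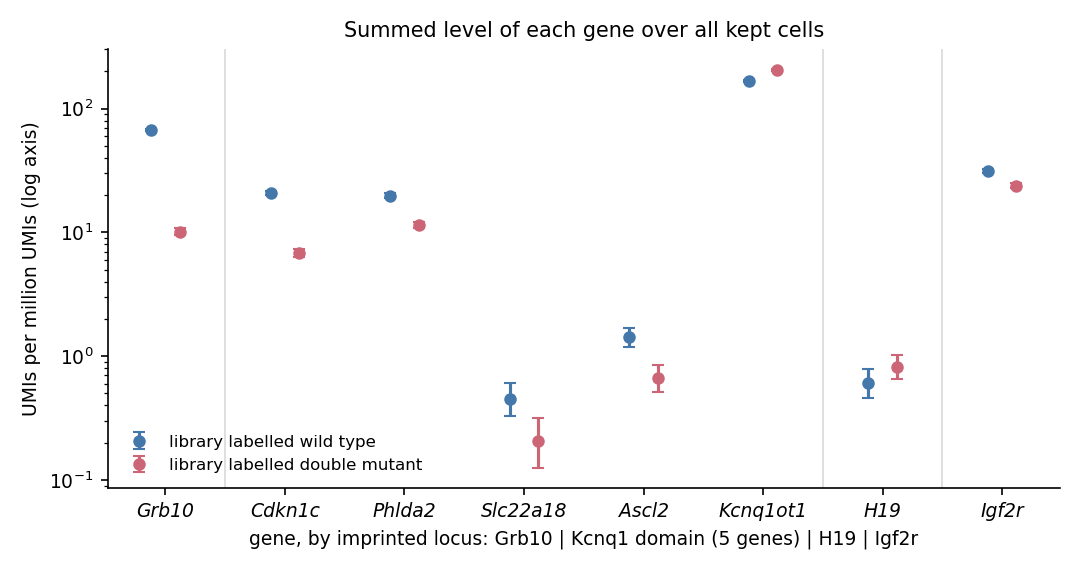
Level of each of the 8 genes summed over all kept cells, in UMIs per 1000000 UMIs on a log axis, for the wild-type-labelled and the mutant-labelled library. Points are levels and bars are 95% Poisson intervals. Grb10, Cdkn1c, Phlda2, Slc22a18, Ascl2 and Igf2r are lower in the mutant-labelled library, Kcnq1ot1 is higher, and the H19 intervals overlap.

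Counted together, 5 of the 8 genes were lower in the mutant-labelled library by 1.5-fold or more and 0 were higher by that much. Of the 5 genes with a mean of at least 10 CPM, 3 were lower by 1.5-fold or more, where 0.237% of all 7607 genes at that level were (18 genes). In the other direction 0.289% of all genes were past the fold. At a mean of at least 1 CPM, 4 of 6 of the genes were lower by that fold, where 0.879% of all 12406 genes were, and 0.532% of all genes were higher. These shares are the background for a set that was picked on this contrast, and nothing further is read from them. The median log2 ratio of the 8 genes was -0.94, and that of all genes at least at 10 CPM was -0.02.

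The same genes were then set side by side within T-positive, Eomes-positive and Irx3-positive cells. Grb10 was lower in all 3 classes. It had 73.2 and 10.5 CPM in T-positive cells (-2.80, -2.97 to -2.64), 71.0 and 10.5 CPM in Eomes-positive cells (-2.76, -2.88 to -2.64), and 65.9 and 12.1 CPM in Irx3-positive cells (-2.45, -2.79 to -2.12). The classes share cells, since 1465 wild-type-labelled and 2452 mutant-labelled cells held both T and Eomes UMIs. In the 3300 and 3081 cells with none of the 3 markers, Grb10 had 63.6 and 9.24 CPM (-2.78). Its ratio was therefore similar whether or not a cell held one of these markers.

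Cdkn1c had 17.5 and 5.58 CPM in T-positive cells (-1.65, -1.90 to -1.40), 15.7 and 5.98 CPM in Eomes-positive cells (-1.39, -1.57 to -1.21), and 24.2 and 11.7 CPM in Irx3-positive cells (-1.06, -1.43 to -0.70). Phlda2 had 17.8 and 11 CPM in T-positive cells (-0.70, -0.90 to -0.50) and 18.0 and 11 CPM in Eomes-positive cells (-0.71, -0.86 to -0.57). With 2 UMIs needed for a positive cell, the T-positive Phlda2 ratio was -0.35 (-0.66 to -0.04), within 1.5-fold, and 4 of the 8 genes were lower by that fold in this class. The lowest Phlda2 ratio of the 3 classes was in Irx3-positive cells, with 23.1 and 7.87 CPM (-1.55, -2.0 to -1.13). Slc22a18 and Ascl2 had few UMIs. Ascl2 had 37 and 17 UMIs in T-positive, 58 and 32 in Eomes-positive, and 17 and 2 in Irx3-positive cells. Slc22a18 had 10 and 6, 14 and 12, and 12 and 2 UMIs in the same order, and its intervals included 0 in all 3 classes.

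Kcnq1ot1 was higher in each class, with 166 and 203 CPM in T-positive (0.29), 164 and 206 CPM in Eomes-positive (0.33) and 179 and 219 CPM in Irx3-positive cells (0.29). Igf2r was lower by a similar amount in each, with log2 ratios of -0.40, -0.41 and -0.34. H19 had 2 and 24 UMIs in T-positive cells (3.42, 1.41 to 6.55), 5 and 39 UMIs in Eomes-positive cells (2.50, 1.16 to 4.20), and 36 and 22 UMIs in Irx3-positive cells (0.61, -0.23 to 1.41). In each class 5 of the 8 genes were lower by 1.5-fold or more and 1, H19, was higher. These counts include genes under 10 CPM, and the share of all genes without a level limit is not given by class. Of the 5 members with at least 10 CPM, 3 were lower by that fold and 0 were higher in each class. Of all genes at that level, 0.329% were lower by that fold in T-positive, 0.145% in Eomes-positive and 0.352% in Irx3-positive cells. The higher shares were 0.25%, 0.119% and 0.469%. At a mean of at least 1 CPM, 3 of 5, 3 of 5 and 3 of 6 members were lower, and 0, 0 and 1 were higher. For all genes at that level the lower shares were 1.71%, 0.755% and 3.69% and the higher shares 1.15%, 0.511% and 3.55%. The 8-gene median log2 ratios were -0.80, -0.70 and -1.16, against -0.02, -0.02 and -0.01 for all genes.

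**Figure D3:**
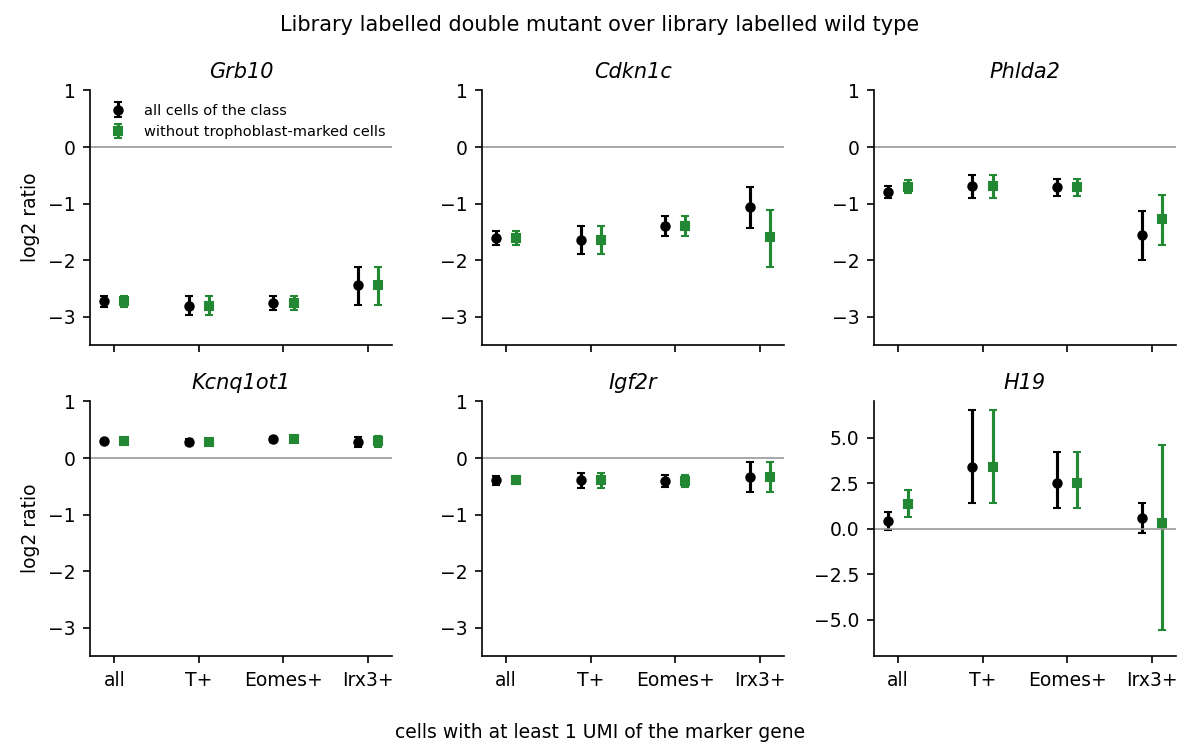
Log2 ratio (mutant-labelled over wild-type-labelled library) of Grb10, Cdkn1c, Phlda2, Kcnq1ot1, Igf2r and H19 in all kept cells and in cells with at least 1 UMI of T, Eomes or Irx3. Black points use all cells of the class, green squares leave out the few trophoblast-marked cells, and bars are 95% counting intervals (the H19 panel has a wider axis). Grb10 stays between -2.80 and -2.45, and in Irx3-positive cells Cdkn1c moves from -1.06 to -1.60 without those cells.

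A handful of cells bore on Cdkn1c, Phlda2 and H19. Cells were called trophoblast-marked, a limit chosen after seeing the data, if 10 listed trophoblast genes (Elf5, Gata3, Tfap2c, Krt8, Krt18, Hand1, Tpbpa, Gata2, Esx1 and Cdx2) summed to at least 2000 CPM. There were 6 such cells in the wild-type-labelled library, 4 of them with an Irx3 UMI, and 2 in the mutant-labelled one, 1 of them with an Irx3 UMI. Over all cells the list summed to 50.9 and 51.6 CPM, and 4 of its 10 genes reached 1 CPM. The keratin genes Krt8, at 19.2 and 18.7 CPM, and Krt18, at 18.7 and 22.4 CPM, were the highest of them. The defining markers Elf5 and Tpbpa were nearly absent, with 1 or 2 UMIs each per library. Which of the 10 genes the marked cells held was not examined, so the name refers to the summed list and not to a shown cell type. The marked cells held 36 of the 59 H19 UMIs of the wild-type-labelled library (61.0%) and 21 of the 80 in the other (26.3%). They held 120 of 2017 Cdkn1c UMIs (5.95%), 94 of them in 1 cell, and 39 of 665 (5.86%). For Phlda2 the figures were 116 of 1919 UMIs (6.04%) and 0 of 1116.

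Without the trophoblast-marked cells, the Irx3-positive values of Cdkn1c and Phlda2 drew nearer to those of the other classes. Cdkn1c then had 286 and 38 UMIs in Irx3-positive cells, or 17.4 and 5.76 CPM (-1.60, -2.13 to -1.10). Phlda2 had 314 and 52 UMIs, or 19.1 and 7.88 CPM (-1.28, -1.73 to -0.85). Slc22a18 was left with 4 and 2 UMIs there (0.32, -3.15 to 3.12), no longer lower, so that 4 of the 8 genes were lower by 1.5-fold or more in this class and 0 higher. This count includes genes under 1 CPM, and no share of all genes is given without the marked cells. With those cells kept, 3.69% of all genes at a mean of at least 1 CPM were lower by that fold in Irx3-positive cells and 3.55% were higher. H19 was left with 2 and 1 UMIs there (0.32, -5.57 to 4.58), so 34 of its 36 and 21 of its 22 Irx3-class UMIs came from the marked cells. Over all cells H19 had 23 and 59 UMIs without them, or 0.237 and 0.604 CPM (1.35, 0.63 to 2.11), and Slc22a18 had 36 and 20 UMIs (-0.86, -1.72 to -0.03). Phlda2 moved to -0.70 and Cdkn1c remained at -1.61. Grb10 had 2 and 0 UMIs in the marked cells, and its ratio was -2.72 with and without them. The T-positive and Eomes-positive values of H19 were 3.42 and 2.50 without the marked cells as well.

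Igf2r in both libraries, and H19 in the wild-type-labelled one, were also high in cells with endoderm markers. These were set apart after seeing the data as cells with UMIs of at least 3 of 7 extraembryonic endoderm genes (Gata6, Gata4, Sox17, Sox7, Dab2, Amn and Ttr). There were 16 and 17 such cells. Igf2r had 73.5 CPM (40.2 to 123) in these cells and 31.2 CPM in the others of the wild-type-labelled library, and 96.5 CPM (56.2 to 155) and 23.7 CPM in the mutant-labelled one. H19 had 6 of its 59 UMIs there in the wild-type-labelled library, in 3 cells, or 31.5 CPM (11.6 to 68.6) against 0.547 CPM in the others. In the mutant-labelled library it had 1 of 80, or 5.68 CPM (0.144 to 31.6) against 0.811 CPM, an interval that included the level of the others. Without them the H19 ratio over all cells was 0.57 (0.05 to 1.10) and that of Igf2r was -0.39. The summed level of the 10-gene endoderm list was 114 and 107 CPM.

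Comparisons of marker-positive with marker-negative cells inside each library were not used to pick the genes, and they show how the levels vary among cells. Cdkn1c was lower in Eomes-positive than in Eomes-negative cells of both libraries, at 15.7 against 25.6 CPM (log2 ratio -0.71, -0.84 to -0.57) in the wild-type-labelled library. In the mutant-labelled library it had 5.98 against 8.47 CPM (-0.50, -0.73 to -0.27). T-positive cells had less Cdkn1c than T-negative cells, with log2 ratios of -0.34 and -0.41. Without the trophoblast-marked cells these differences were smaller, at -0.57 (-0.70 to -0.43) and -0.28 (-0.52 to -0.04) for Eomes and -0.23 (-0.38 to -0.08) and -0.29 (-0.55 to -0.04) for T. A further 19 wild-type-labelled cells, each with at least 5 Cdkn1c UMIs, held 209 of its 2017 UMIs. In the mutant-labelled library 3 such cells held 26 of 665. Whether these cells held Eomes or T UMIs was not examined, and they were not left out of the Cdkn1c values. Grb10 in the wild-type-labelled library was slightly higher in T-positive (0.18, 0.11 to 0.26) and Eomes-positive cells (0.16, 0.09 to 0.23), and lower in cells positive for the naive pluripotency gene Zfp42 (-0.17, -0.27 to -0.07) and in the 52 cells positive for the endoderm gene Sox17 (-0.57, -1.19 to -0.02, from 26 UMIs). The mutant-labelled values were 0.07 and 0.14 for T and Eomes, with intervals that included 0, 0.35 (0.10 to 0.58) for Zfp42, and 0.31 (-1.57 to 1.67) for Sox17, from 4 UMIs. Cells are not replicates, so no test accompanies these values.

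Phlda2 was higher in cells positive for Zfp42 and for the stress gene Ddit3. The Zfp42 values were 25.3 against 18.8 CPM (0.43, 0.26 to 0.59) in the wild-type-labelled library and 15.4 against 10.8 CPM (0.52, 0.30 to 0.73) in the mutant-labelled one. The Ddit3 values were 26.9 against 19.2 CPM (0.48, 0.25 to 0.71) and 16.1 against 11.1 CPM (0.53, 0.20 to 0.83). These values include the trophoblast-marked cells, and they were not taken again without those cells. The marked cells held 116 of the 1919 Phlda2 UMIs of the wild-type-labelled library, up to 50 in 1 cell. In the mutant-labelled library they held 0 of 1116. Kcnq1ot1 was higher in cells positive for the neural gene Sox1 in both libraries, with 199 against 165 CPM (0.27, 0.16 to 0.37) and 251 against 204 CPM (0.30, 0.17 to 0.42). It was lower in cells positive for Gsc, a marker of anterior mesendoderm, at -0.13 and -0.10. Igf2r differed by at most 0.16 in size in 9 of the 10 marker classes of both libraries, and the exception was the 52 and 35 Sox17-positive cells (0.48, -0.15 to 1.04, and 0.66, -0.29 to 1.47). H19 in Zfp42-positive cells of the mutant-labelled library was at 1.62 against 0.683 CPM (1.25, 0.48 to 1.97), from 23 and 57 UMIs. In that library 1 cell held 21 of the 80 H19 UMIs. On which side of this contrast it fell was not examined, so the difference may rest on that cell.

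Genes of the Kcnq1 domain did not all vary together from cell to cell. With the trophoblast-marked cells left out, Phlda2 was higher in cells with a Cdkn1c UMI than in cells without, at 23.7 against 17.5 CPM (0.44, 0.28 to 0.60) in the wild-type-labelled library. In the mutant-labelled library it was at 22.3 against 10.8 CPM (1.05, 0.77 to 1.32). Kcnq1ot1 was lower in cells with a Phlda2 UMI, by -0.20 (-0.27 to -0.14) and -0.20 (-0.28 to -0.13) on the log2 scale. It was also lower in cells with a Cdkn1c UMI, at -0.10 (-0.16 to -0.04) and -0.31 (-0.41 to -0.22). Such differences were not limited to the domain. Grb10, on chromosome 11, was higher in cells with a Phlda2 UMI, by 0.10 (0.01 to 0.19) and 0.62 (0.35 to 0.87). In cells with an Igf2r UMI the Grb10 values were 0.05 and 0.04, with intervals that included 0. Whether a cell shows a Cdkn1c UMI moves with depth, as 4.54% of cells did at 2500 UMIs and 16.2% at full depth in the wild-type-labelled library, and the part of depth in these values was not tested.

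Cells poor in chromosome 11 transcripts were examined because Grb10 lies on that chromosome and such cells were unevenly spread. Among cells with at least 4000 UMIs, 1507 in the wild-type-labelled library (17.8%) and 599 in the mutant-labelled one (5.86%) had at most 0.8 times the median share of UMIs on chromosome 11. The share was taken without the 8 genes. Grb10 in these low cells had 65.3 CPM against 67.7 CPM in the other cells of the wild-type-labelled library (-0.05, -0.15 to 0.05). In the mutant-labelled library it had 6.51 against 10.4 CPM (-0.68, -1.24 to -0.16), from 31 UMIs in the low cells. Within the other cells alone, the ratio between the libraries was -2.70 (-2.80 to -2.60), nearly that of all cells.

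The genes on other chromosomes differed more between those cell sets than Grb10 did in the wild-type-labelled library. Phlda2 was lower in the low cells of both libraries, at 10.3 against 21.4 CPM (-1.06, -1.31 to -0.82) and 7.14 against 11.6 CPM (-0.70, -1.24 to -0.21). Kcnq1ot1 was higher in them, at 221 against 158 CPM (0.48, 0.42 to 0.54) and 280 against 203 CPM (0.47, 0.38 to 0.55). Igf2r was higher as well, by 0.33 (0.19 to 0.46) and 0.42 (0.17 to 0.66), and so was Cdkn1c, by 0.18 (0.00 to 0.35) and 0.76 (0.32 to 1.16). In the other cells alone, the ratios between the libraries were -1.62 for Cdkn1c, -0.88 for Phlda2, 0.36 for Kcnq1ot1 and -0.36 for Igf2r. Cells as poor in chromosome 7 transcripts numbered 8 and 9, yet they held many of the H19 UMIs, with 27 in the low and 31 in the other cells of the wild-type-labelled library and 21 and 58 in the mutant-labelled one. The mutant-labelled chromosome 7 low cells also held 39 Cdkn1c UMIs, against 619 in the other cells. Cells poor in chromosome 17 transcripts, where Igf2r lies, numbered 16 and 7, with 4 and 0 Igf2r UMIs. The 16 wild-type-labelled ones held 100 Cdkn1c and 47 Phlda2 UMIs. Single trophoblast-marked cells held up to 27 H19 and 94 Cdkn1c UMIs in the wild-type-labelled library, and up to 21 and 39 in the other. The sums for cells poor in chromosome 7 or 17 transcripts may therefore rest on 1 or a few of those cells. The overlap of these cell sets was not examined.

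**Figure D4:**
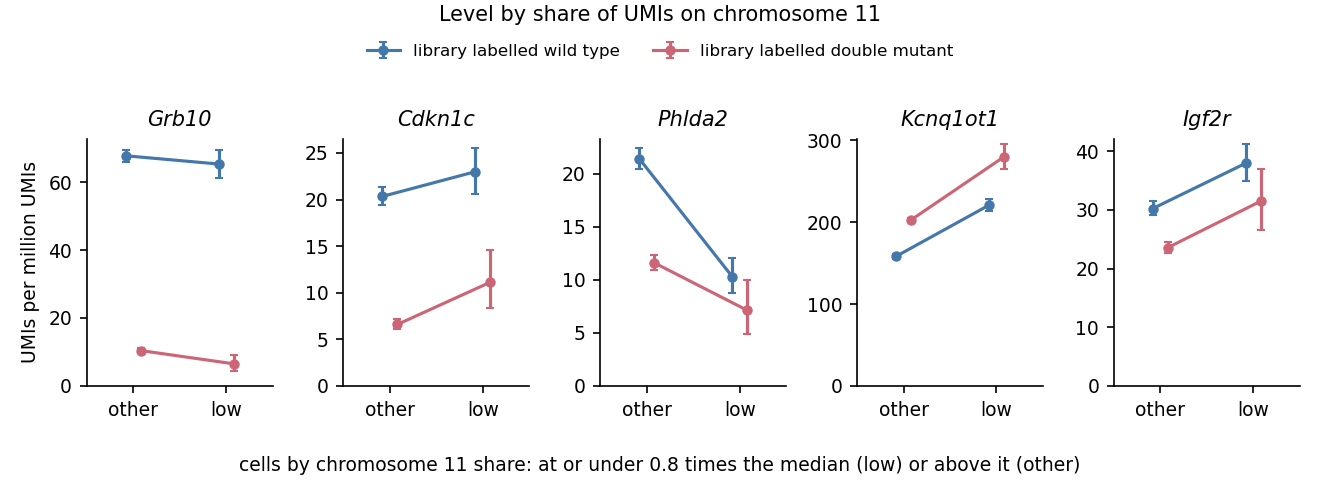
Level of Grb10, Cdkn1c, Phlda2, Kcnq1ot1 and Igf2r, in UMIs per 1000000 UMIs, in cells with at most 0.8 times the median chromosome 11 share (low) and in the other cells of each library, among cells with at least 4000 UMIs. Points are levels and bars are 95% Poisson intervals. The wild-type-labelled Grb10 levels are 65.3 and 67.7, while Phlda2 is lower and Kcnq1ot1 higher in the low cells of both libraries.

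The differences in level also appeared as shares of cells with a UMI. To compare at equal depth, every cell was thinned to 2500 UMIs, which left out 0 cells because that is the lower limit of a kept cell. A Grb10 UMI was then found in 14.3% (13.6 to 15.1) of wild-type-labelled and 2.33% (2.05 to 2.64) of mutant-labelled cells, against 43.2% and 8.24% without thinning. The Cdkn1c shares were 4.54% and 1.39% (16.2% and 5.06% without thinning), and the Phlda2 shares 4.50% and 2.57% (16.0% and 8.74%). Kcnq1ot1 was found in 30.04% (29.1 to 31.0) and 35.8% (34.9 to 36.7), and Igf2r in 7.30% and 5.80%. The highest Grb10 count in any cell was 9 UMIs in the wild-type-labelled and 5 in the mutant-labelled library, and the 100 wild-type-labelled cells with the most Grb10 UMIs held 8.41% of its sum.

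**Figure D5:**
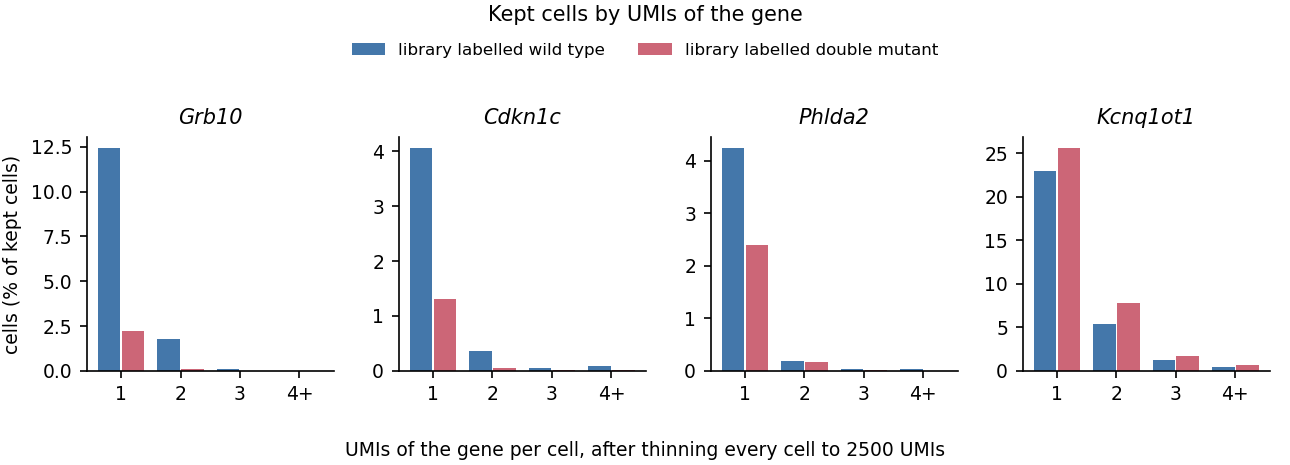
Percent of kept cells with 1, 2, 3 or at least 4 UMIs of Grb10, Cdkn1c, Phlda2 or Kcnq1ot1 after every cell was thinned to 2500 UMIs, as bars for each library. A Grb10 UMI is found in 14.3% of wild-type-labelled and 2.33% of mutant-labelled cells, and a Kcnq1ot1 UMI in 30.04% and 35.8%.

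Free RNA was read from barcodes with 10 to 200 UMIs, of which there were 102287 and 89914, with a mean of 39.8 and 29.5 UMIs. Grb10 had 47.4 and 7.93 CPM there (-2.58, -3.30 to -1.93), Cdkn1c 17.7 and 4.15 CPM (-2.09, -3.15 to -1.17) and Phlda2 23.8 and 10.9 CPM (-1.12, -1.77 to -0.51). Kcnq1ot1 had 71.9 and 93.2 CPM (0.37, 0.12 to 0.62). If a cell took up as many UMIs as 1 such barcode holds, free RNA would give 0.189% and 0.0234% of cells a Grb10 UMI. For Cdkn1c the shares would be 0.0704% and 0.0122%. These shares follow from the 10 to 200 UMI limits, and the free RNA in a barcode that holds a cell was not measured. A cell class that should lack Grb10 was not among the lists, and in the 16 and 17 endoderm-marked cells 2 and 0 held a Grb10 UMI.

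Genes that work with these members were read from lists of their pathways. Of 32 insulin and IGF signalling genes, 29 reached a mean of 1 CPM, with 16 lower, 13 higher, 0 past 1.5-fold and a median log2 ratio of -0.06, where all genes had -0.03. Grb7, a relative of Grb10 in the same adaptor family, was the most different, with 18.6 and 26.0 CPM (0.48, 0.39 to 0.57). The insulin receptor gene Insr had 14.5 and 12.0 CPM (-0.28), and the IGF-binding protein gene Igfbp3 had 13.8 and 11.5 CPM (-0.26). Igf1r, the other receptor that Grb10 binds, had 54.8 and 46.6 CPM (-0.23). Of 16 cyclin-dependent kinase inhibitors and G1 genes, 15 reached 1 CPM, with 11 lower, 4 higher, 0 past 1.5-fold and a median of -0.02. Cdkn2a, which encodes p16 and p19Arf, had 13.3 and 10.1 CPM (-0.40), the retinoblastoma gene Rb1 14.7 and 11.7 CPM (-0.33), and cyclin D1 (Ccnd1) 260.3 and 222 CPM (-0.23). The closest relatives of Cdkn1c were far less different than it was: Cdkn1a had 361 and 359.9 CPM, and Cdkn1b 40.6 and 35.1 CPM (-0.21).

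Other imprinted genes were set beside the 8. Of 16 further maternally expressed genes, 11 reached 1 CPM, with 8 lower, 3 higher, 0 past 1.5-fold and a median log2 ratio of -0.04. The creatine synthesis gene Gatm had 15.4 and 11.8 CPM (-0.39), the noncoding RNA Meg3 509 and 617 CPM (0.28), and the G-protein gene Gnas 328 and 292 CPM (-0.17). Of 25 paternally expressed genes, 20 reached 1 CPM, with 16 higher, 4 lower and a median of 0.19. The 2 past 1.5-fold were both higher: Snrpn, a splicing factor gene, had 366 and 600.2 CPM (0.71) and Zrsr1, another splicing factor gene, 6.61 and 10.3 CPM (0.64). Mest, a hydrolase gene, had 70.5 and 52.9 CPM (-0.41), and Mcts2 18.6 and 22.8 CPM (0.29). By comparison, 0.532% of all genes at this level were higher by 1.5-fold or more.

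The genes with profiles most like those of Grb10, Cdkn1c and Phlda2 were looked up over 20 points, the 10 marker-positive classes of both libraries, on log2 of CPM plus 1. The points share libraries and cells, so a correlation here is a description. Grb10 had 45.2 to 73.2 CPM in the wild-type-labelled classes and 7.77 to 12.6 CPM in the mutant-labelled ones. Its profile is thus mostly the difference between the libraries, which was already known when the gene was picked. Closeness to Grb10 therefore mainly reflects that difference, and likeness within a library was not tested. The part of that difference in the Cdkn1c and Phlda2 correlations was not tested. Closest to Grb10 were Rpl9 (Pearson r 0.98), Rpa3 (0.97), Snrpf (0.96), Naa20 (0.96) and Rpl9-ps6 (0.95), of which Rpl9 and Rpl9-ps6 are near-identical copies that counting may not separate. Rpl9 had 2861 and 2404.5 CPM (-0.25), a far smaller difference than that of Grb10. Rpa3, a subunit of the single-strand DNA binding complex RPA, had 107 and 62.5 CPM (-0.77). Closest to Cdkn1c were Pabpc1 (0.97), Ptk7 (0.97), Sfpq (0.95), Hnrnph1 (0.95) and Huwe1 (0.94), and closest to Phlda2 were Rps10 (0.97), Rpl5 (0.96), Zcchc4 (0.96), Rps3a1 (0.94) and Rps23 (0.94). The Sox17-positive points of Cdkn1c and Phlda2 rest on 5 and 3 UMIs in the wild-type-labelled and 0 in the mutant-labelled library. The weight of these points in the correlations was not tested.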

How the data were processed

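Single cells of 2 libraries, 1 for each genotype label, were analysed. The authors deposited raw counts of UMIs from 10x 3′ libraries, with a row for each gene and a column for each barcode. Cell Ranger 8.0.1 is named in the extract protocol of the labels, and STARsolo, STAR 2.7.9a, Seurat 5.1.0 and mm10 in the submitters' processing notes, with no order given. The strand setting was not given in the sources used here. Per the labels the median cell had 5333 and 5398 genes, while kept cells have 3275 and 2884 in the deposited counts, so these may not be the counts behind the labels' statistics.

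Barcodes with at least 2500 UMIs (8772 and 10613) were filtered on at least 1000 genes (1 and 0 removed) and at most 10% mitochondrial UMIs (64 and 26 removed). The kept cells held 97157331 and 97644169 UMIs, and no doublets were removed in the values of the report. Counts were summed over cells and divided by the summed total to give CPM. A log2 ratio has no pseudocount. Levels carry exact Poisson, ratios exact conditional binomial and shares Clopper-Pearson 95% intervals, all for counting error only. No test was possible with 1 library on each side. Alternatives were TMM (edgeR 4.0.16) and median-of-ratios scaling, limits of 5000 UMIs or 5% mitochondrial UMIs, thinning to 2500 UMIs, 2 UMIs for a positive cell, removal of likely doublets, and removal of cells low in chromosome 11, endoderm-marked or trophoblast-marked. The co-detection ratio first planned was replaced by the level of a gene in cells with and without a UMI of another. Python 3.11.15, numpy 2.4.6, scipy 1.17.1, scanpy 1.11.5 and R 4.3.3 were used, and the scripts were tested on simulated data. Gene positions are from GENCODE M21. The named genes are the 8, the class genes, Sp5 and Sp8, the 3 genes of each list with the largest absolute log2 ratio at a mean of at least 10 CPM, and the 5 closest profiles. Other genes were named after their values were seen. The 8 genes and all lists were chosen with earlier results of these data known.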

Additional observations from a re-analysis of the deposited data

Results flagged for a closer look

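Phlda2 differed in opposite directions between Irx3-positive and Irx3-negative cells of the libraries. Its log2 ratio (positive over negative cells) was 0.28 (0.11 to 0.44) in the wild-type-labelled library, with 23.1 against 19.1 CPM, and -0.57 (-1.0 to -0.17) in the mutant-labelled one, with 7.87 against 11.7 CPM. The difference between these ratios was not tested, since each genotype label has 1 library. Without the 6 and 2 trophoblast-marked cells, an alternative chosen after seeing the data, the values were 0.05 (-0.13 to 0.23) and -0.57 (-1.0 to -0.17).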

How the results depend on the processing

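No paired analysis was possible because each group has 1 library. Grb10 kept its direction in every population and alternative run, with log2 ratios from -2.76 to -2.70 over all cells, -3.00 to -2.78 in T-positive, -2.88 to -2.73 in Eomes-positive and -2.59 to -2.17 in Irx3-positive cells. Over all cells Cdkn1c ranged from -1.91 to -1.58, Phlda2 from -0.88 to -0.70, Kcnq1ot1 from 0.29 to 0.36, Igf2r from -0.41 to -0.33 and H19 from -0.56 to 1.40. In the classes Phlda2 ranged from -1.06 to -0.35 in T-positive, -0.79 to -0.64 in Eomes-positive and -1.86 to -0.27 in Irx3-positive cells, the last being the value with thinning. In Irx3-positive cells, Cdkn1c reversed to 0.26 (-1.51 to 1.91) with cells thinned to 2500 UMIs and to 0.40 (-0.09 to 0.88) with 2 UMIs needed for a positive cell, and Igf2r to 0.31 (-0.64 to 1.23) with thinning. Thinning leaves fewer UMIs and fewer positive cells. The reversal with 2 UMIs came with an H19 ratio of 3.76 (2.47 to 5.24) in the same class and setting. Among cells with at least 1 Irx3 UMI, 1 mutant-labelled trophoblast-marked cell held 39 of 77 Cdkn1c and 21 of 22 H19 UMIs. In the wild-type-labelled library 4 such cells held 113 of 399 and 34 of 36. Whether these cells held 2 Irx3 UMIs was not examined, and the cause of this reversal was not tested. The number of the 8 genes higher by 1.5-fold or more was 1 over all cells at the 5% mitochondrial limit and without trophoblast-marked cells. In Irx3-positive cells it was 0 under both of these, with thinning and without chromosome 11 low cells, and the number lower was 2 with thinning and 4 without trophoblast-marked cells. In T-positive cells the number lower was 4 with thinning and with 2 UMIs needed for a positive cell. The share of all genes lower by that fold was 0.879% at a mean of at least 1 CPM and 13.3% with all genes, and the share higher was 0.532% and 11.2%. Of the alternative values, 311 of single genes and 125 of the summaries stayed within their limits, and 20 and 11 moved past them. A further 3 of single genes were counted as reversed. Not every change of sign was counted so. Slc22a18 in Irx3-positive cells ranged from -1.35 to 0.32 and H19 over all cells from -0.56 to 1.40, with 0 counted as reversed. The median of the 8 genes has no value with thinning in T-positive and Irx3-positive cells. Slc22a18, Ascl2 and H19 are limited by their counts of 20 to 138 UMIs per library.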

Other observations

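Some Cdkn1c counts sat in rare cells that also held transcripts of early neurons. In the wild-type-labelled library, 19 cells that were not trophoblast-marked had at least 5 Cdkn1c UMIs, 209 in all. Of these, 12 held a UMI of Onecut2 (63.2%, against 4.48% of the other cells), 10 of Ebf2 (52.6%, 0.817%), 9 of Insm1 (47.4%, 0.668%) and 6 of Elavl4 (31.6%, 1.92%). These are genes of neuronal differentiation, and they were picked after their values in these cells were seen, so the shares are a description. The limit of 5 UMIs was set on unthinned counts, which deeper cells reach more easily. The part of depth in these shares was not tested. At least 1 of the 4 was found in 16 of the 19 cells (84.2%) and in 7.01% of the others. In the mutant-labelled library 3 such cells held 26 Cdkn1c UMIs, and 1 of them had a UMI of the 4 genes, Onecut2.

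Cells poor in chromosome 6 transcripts made up 21.2% of wild-type-labelled and 18.3% of mutant-labelled cells with at least 4000 UMIs. Phlda2 in these cells had 12.6 against 21.5 CPM in the other cells of the wild-type-labelled library (-0.77, -0.97 to -0.57) and 14.7 against 10.7 CPM in the mutant-labelled one (0.46, 0.25 to 0.67). Kcnq1ot1 had 201 against 160.02 CPM (0.33, 0.27 to 0.38) and 188 against 210.4 CPM (-0.16, -0.21 to -0.10). Neither difference between the libraries was tested.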
